A study of Mus musculus with 4 samples.

Results

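The AP-1 family genes Fos, Fosb, Fosl1, Fosl2, Jun, Junb, Jund and Batf were followed in B16F10 cells, a pigmented mouse melanoma line, on 4 expression arrays. The 8 genes were chosen by name from the 17097 named genes of the array, by a rule that uses no values although earlier results of these data were known, and all 8 were measured, by 12 probe sets annotated to a single gene. The agent was plumbagin, a naphthoquinone made by plants that cycles between redox states. In the samples called plumbagin 1 and plumbagin 2, cells were exposed to 2 µM of it over 24 h. In those called control 1 and control 2, whose titles say untreated, the cells were given MilliQ water (0 µM). All 4 samples were of the same line, with no genotype or other agent named. Whether the samples within a group came from different cultures is not in the labels, so the p-values below measure the spread between these arrays, which may be technical.

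AP-1 is a dimeric transcription factor of the basic leucine zipper class. Jun proteins pair with each other or with Fos proteins, Fos proteins need a partner to bind DNA, and Batf proteins pair with Jun proteins in place of Fos. Fos and Jun are induced within minutes by growth factors, stress and redox signals through MAP kinases, their mRNAs are short-lived, and in melanoma AP-1 is known for its place downstream of the BRAF and MAP kinase pathway and in states of low differentiation.

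Each probe set had 1 log2 expression value on each array, so a difference of 1 stands for a doubling. Median log2 values of the arrays lay between 4.32 and 4.39. The 95th percentile of 41 odorant receptor genes, assumed to be silent here, was 5.05 and served as a background level; 8637 genes (50.5%) had a mean above it. All 8 melanocyte markers lay above that level, with means from 10.85 to 12.32, while 0 of 6 fibroblast, 0 of 6 macrophage and 0 of 6 keratinocyte markers did, and 1 of 5 endothelial markers (Kdr, 5.15). Plumbagin 1 stood apart in its hybridization spike-ins, with a mean log2 value of 9.58 against 8.67 on plumbagin 2 and 8.46 and 8.77 on the controls. Its part in the values below was not tested, and the differences of Jun, Fos and Jund are also given without each array in turn. Having 2 arrays in each group limits the precision of every value.

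The stretch of 250 bases before the annotated start site is shown for Jun, Fos and Jund, because these were the members below their control within both array numbers. Capitals mark matches, on either strand, to TGANTCA (the AP-1 site), TGACNTCA (which takes in the CREB site and the site through which c-Jun and ATF2 act on the Jun promoter), TGACG (the core of a CREB site, which overlaps TGACNTCA where N is G), TATAAA and the serum response element. Sequences are from RefSeq, build GRCm38.p6, 5′ to 3′ on the gene's strand, and lie upstream of the transcript.
Jun, chr4:95052223-95052472, minus strand: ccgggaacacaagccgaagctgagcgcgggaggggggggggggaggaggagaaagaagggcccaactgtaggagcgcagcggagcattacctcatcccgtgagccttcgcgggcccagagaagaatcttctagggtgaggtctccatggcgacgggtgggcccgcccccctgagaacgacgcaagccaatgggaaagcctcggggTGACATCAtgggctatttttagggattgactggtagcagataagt
Fos, chr12:85473640-85473889, plus strand: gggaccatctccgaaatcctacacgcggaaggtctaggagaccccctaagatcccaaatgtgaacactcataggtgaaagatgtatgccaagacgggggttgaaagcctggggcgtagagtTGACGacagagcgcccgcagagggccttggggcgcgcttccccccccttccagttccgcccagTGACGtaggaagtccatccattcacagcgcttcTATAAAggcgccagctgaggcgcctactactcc
Jund, chr8:70697489-70697738, plus strand: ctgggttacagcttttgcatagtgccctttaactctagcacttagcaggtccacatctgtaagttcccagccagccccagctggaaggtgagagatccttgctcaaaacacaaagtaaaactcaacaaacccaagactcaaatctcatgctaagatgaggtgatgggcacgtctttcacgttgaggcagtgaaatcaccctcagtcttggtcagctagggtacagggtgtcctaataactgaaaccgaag
The Jun stretch held 1 match to TGACNTCA, TGACATCA, whose first base lay 45 bases before the start site. The Fos stretch held TGACG at 129 and at 66 bases and TATAAA at 33 bases before the start site. The Jund stretch held no match to these motifs in its letters. Of the 8 genes, 7 had such a stretch in the table used; among them TGACG was found in 4 (Fos, Fosb, Junb and Batf), TGACNTCA and TATAAA in 1 each, and TGANTCA and the serum response element in 0. Of 32851 promoter stretches of the same length, 17.8% held TGACG, 7.49% TGACNTCA, 12.4% TATAAA, 6.75% TGANTCA and 1.47% the serum response element. These matches are letters in a window of 250 bases and were not tested for binding. Sites farther upstream or after the start site were not looked for. A count of 0 therefore does not mean that a gene lacks the motif outside this window.

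The comparison of plumbagin with the control asked whether the AP-1 genes differed after 24 h. Jun had the widest difference of the family, 1.53-fold below the control mean, and Fos and Jund also lay below their control within both array numbers, by smaller amounts. Fosl2, Junb and Batf had differences within 0.05 of 0 (log2), and Fosb and Fosl1 had differences of 0.13 and 0.14. None of the 8 genes passed the limma test, whose adjusted p was 1 for each. Over all 17097 genes 0 passed (0% called), and 169 had an unadjusted p under 0.05 (0.988%), of which 0 were members. With the replicate number as a block, the unadjusted p was 0.00387 for Jun and 0.0490 for Fos, and the limma adjusted p was 0.919 for each. Under that block 434 of the 17097 genes had an unadjusted limma p under 0.05. With 2 arrays against 2, an exact two-sided permutation test of a single gene cannot give a p below 0.333. In bulk RNA, fewer cells with a transcript and less of it per cell cannot be told apart.

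**Figure D1:**
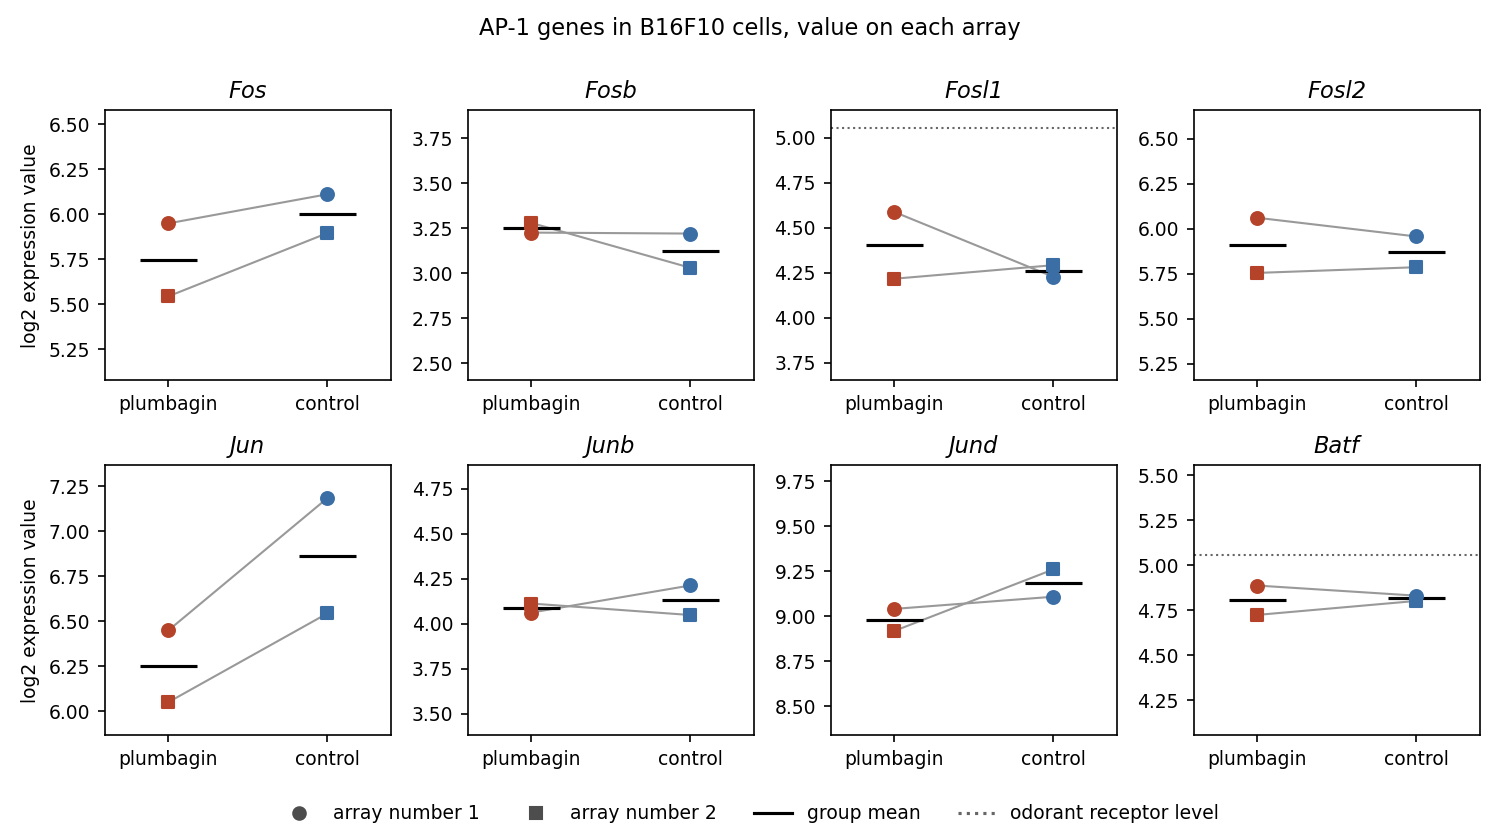
Log2 expression value (vertical axis, 1.5 log2 units in every panel) of the 8 AP-1 genes in the 2 plumbagin arrays (red, left) and the 2 control arrays (blue, right). Circles are arrays numbered 1, squares are arrays numbered 2, grey lines join arrays of one number, black bars are group means and the dotted line is the odorant receptor level of 5.05 where it falls in the panel. Jun and Jund are the panels in which both red points lie below both blue points.

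Jun encodes c-Jun, which pairs with Fos proteins and also with itself. Its log2 values were 6.45 on plumbagin 1 and 6.05 on plumbagin 2, against 7.18 on control 1 and 6.54 on control 2. Both plumbagin arrays thus lay below both controls, with a gap of 0.09 between the nearest arrays of the groups, while the controls differed from each other by 0.64. The means were 6.25 ± 0.28 with plumbagin and 6.86 ± 0.45 in the control (SD, n = 2 each), a difference of -0.61 ± 0.27 (log2, SE) with a 95% interval from -1.33 to 0.11 (limma adjusted p = 1). Within array numbers the differences were -0.73 in number 1 (plumbagin 1 minus control 1) and -0.49 in number 2, or 1.66-fold and 1.41-fold lower. Of all 17097 genes, 11 had a lower mean difference, and 0.076% had a difference of -0.6 or lower.

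The size of the Jun difference depended on the control arrays and on the probe set. It was -0.29 without control 1 and -0.93 without control 2, and it was -0.81 without plumbagin 1 and -0.41 without plumbagin 2. A second Jun probe set gave 6.41 and 5.96 with plumbagin, against 6.59 and 6.18 in the controls. These groups overlapped, because plumbagin 1 lay above control 2. Its difference was -0.20 ± 0.22 (log2, SE; limma adjusted p = 1 over all probe sets), with a 95% interval from -0.81 to 0.40 that also holds the value of the main probe set. Within numbers it was -0.18 and -0.23.

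Jund encodes JunD, which is expressed in many resting cells and is less sharply induced than its relatives. Its log2 values were 9.04 and 8.92 on plumbagin 1 and 2, against 9.11 and 9.26 on control 1 and 2. Both plumbagin arrays lay below both controls, with a gap of 0.07. The means were 8.98 ± 0.09 with plumbagin and 9.18 ± 0.11 in the control (SD, n = 2 each), a difference of -0.20 ± 0.10 (log2, SE; 95% interval -0.48 to 0.07; limma adjusted p = 1). Most of it came from the arrays numbered 2, at -0.34, against -0.07 in those numbered 1. It was -0.27 without plumbagin 1, -0.14 without plumbagin 2, -0.28 without control 1 and -0.13 without control 2. The other Jund probe set was below the background level, with values from 4.09 to 4.22 and a difference of -0.00103.

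Junb encodes JunB, an early-response gene that can oppose c-Jun at some promoters. It lay below the background level on every array, at 4.06 and 4.11 with plumbagin against 4.21 and 4.05 in the controls. The groups overlapped, the difference was -0.04 ± 0.10 (log2, SE), and its sign turned between the array numbers, with -0.15 in number 1 and 0.06 in number 2.

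Fos encodes c-Fos, the classical immediate early gene. Its log2 values were 5.95 and 5.54 on plumbagin 1 and 2, against 6.11 and 5.90 on control 1 and 2. Each plumbagin array lay below the control of its own number, but plumbagin 1 lay above control 2, so the groups overlapped by 0.05. The means were 5.75 ± 0.29 with plumbagin and 6.004 ± 0.153 in the control (SD, n = 2 each). The difference was -0.26 ± 0.17 (log2, SE; 95% interval -0.72 to 0.21; limma adjusted p = 1), with -0.16 in number 1 and -0.35 in number 2. It was -0.46 without plumbagin 1 and -0.05 without plumbagin 2, and it was -0.15 without control 1 and -0.36 without control 2.

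Fosl2 encodes FRA-2, a Fos-related protein without the strong activation domain of c-Fos. Its main probe set gave 6.06 and 5.75 with plumbagin, against 5.96 and 5.79 in the controls, and the groups overlapped. The difference was 0.04 ± 0.14 (log2, SE; 95% interval -0.35 to 0.42). The other probe set gave 5.59 and 5.88 with plumbagin, against 5.77 and 6.05 in the controls, with a difference of -0.18 ± 0.16. The probe sets also opposed each other within each group: the main one was higher on both arrays numbered 1, the other on both numbered 2. No direction can therefore be given for Fosl2.

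Fosl1 encodes FRA-1, which accumulates where ERK signalling is sustained and is known as a marker of invasive melanoma cells. It lay below the background level on every array, at 4.59 and 4.22 with plumbagin against 4.23 and 4.29 in the controls. Plumbagin 1 was the highest array and plumbagin 2 the lowest, so the difference of 0.14 ± 0.15 (log2, SE) was made of 0.36 in number 1 and -0.08 in number 2. The other Fosl1 probe set lay between 3.30 and 3.36 on the 4 arrays.

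Fosb encodes FosB, a c-Fos relative best known in neurons. It was also below the background level, at 3.23 and 3.28 with plumbagin against 3.22 and 3.03 in the controls. Both plumbagin arrays lay above both controls, by 0.00543 between the nearest arrays, and the difference was 0.13 ± 0.10 (log2, SE; 95% interval -0.15 to 0.40). Batf, known for its role in T and B lymphocytes, was at 4.89 and 4.72 with plumbagin against 4.83 and 4.80 in the controls, below the background level on every array. Its groups overlapped and its difference was -0.01 ± 0.09.

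**Figure D2:**
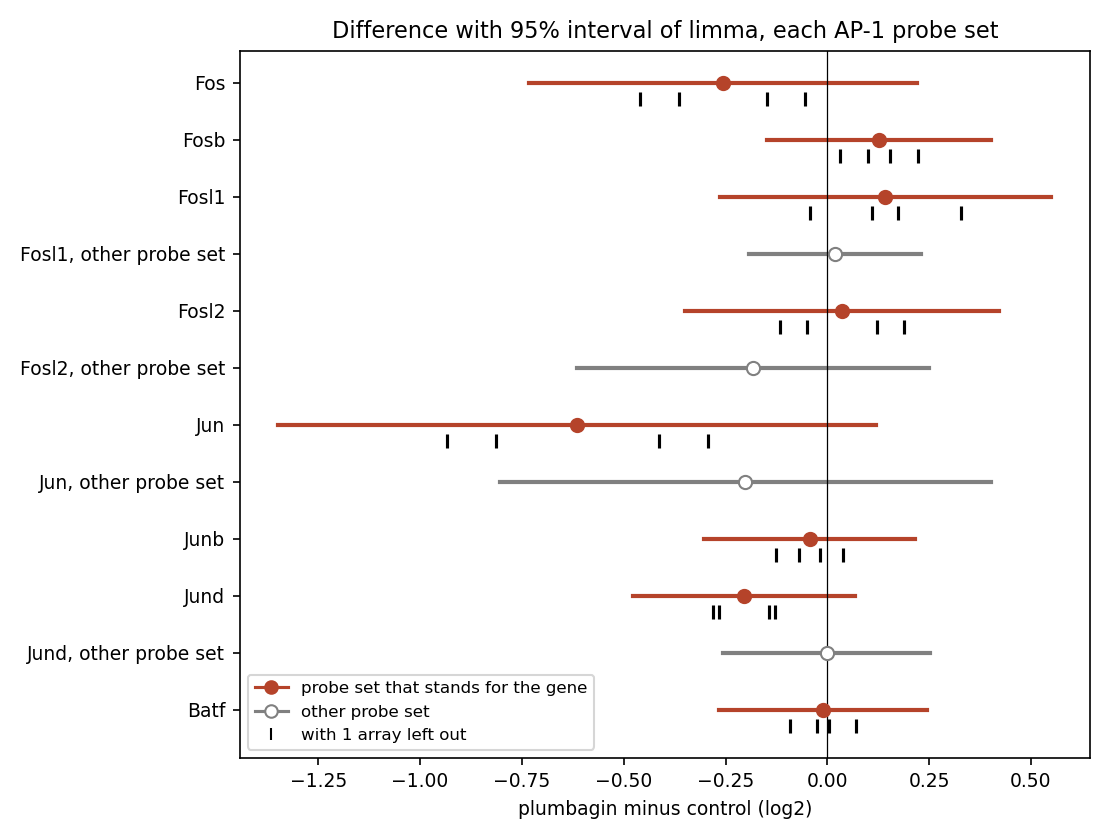
Difference of plumbagin minus control (horizontal axis, log2) for the 12 AP-1 probe sets, with the 95% interval of limma over all probe sets as bars. Red marks the probe set that stands for each gene, grey the other probe sets, and black ticks the difference with 1 array left out. Every interval includes 0, and the second Jun and Jund probe sets lie closer to 0 than the main ones.

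Counted over the family, both plumbagin arrays lay below both controls in 2 of 8 genes (Jun and Jund), beside 15.2% of all genes, and above both in 1 of 8 (Fosb), beside 10.2%. Among the 4 members with a mean above the background level the count below was 2 of 4, beside 18.3% of the genes above that level, and the count above both controls was 0 of 4, beside 5.66%. The 2 genes were decided by gaps of 0.09 and 0.07, and the count was 3 with arrays centred on their medians, 1 after cyclic loess and 0 when quantile normalization was repeated. Within both array numbers the difference was below 0 in Fos, Jun and Jund, 3 of 8 genes, beside 29% of all genes, and in 3 of the 4 members above the background level, beside 36.8% of the genes above it. It was above 0 within both numbers in Fosb, beside 21.7% of all genes. The other 4 genes, Fosl1, Fosl2, Junb and Batf, had opposite signs in number 1 and number 2, as had 48.7% of all genes. The mean difference was below 0 in 5 of 8 genes, beside 55.1% of all genes. The median difference of the 8 genes was -0.03, beside -0.01 over all genes. It was -0.10 without plumbagin 1 and -0.09 without control 2, but 0.00854 without plumbagin 2 and 0.02 without control 1, so its sign rested on single arrays. Among the 4 members above the background level the median was -0.23, beside -0.05 over the genes above it.

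**Figure D3:**
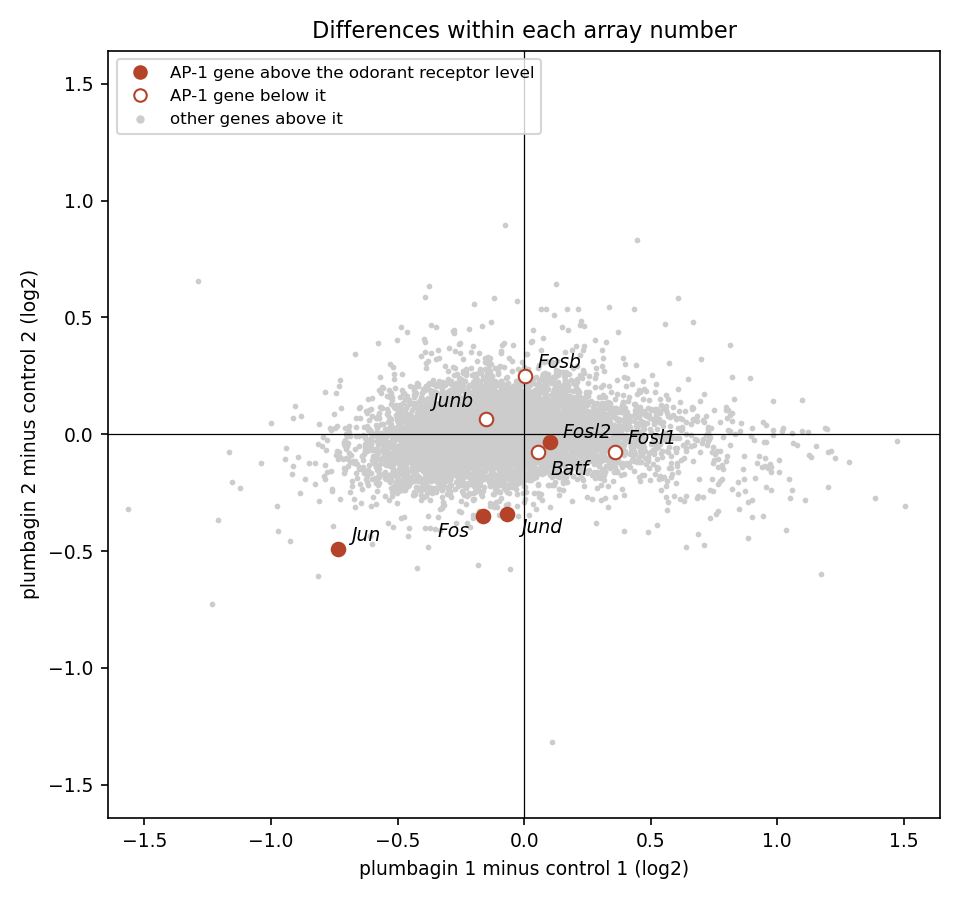
Difference of plumbagin 1 minus control 1 (horizontal axis, log2) against plumbagin 2 minus control 2 (vertical axis, log2). Grey points are the 8637 genes with a mean above the odorant receptor level, filled red points the AP-1 genes above it and open red points those below it. Jun lies at -0.73 and -0.49, toward the lower left edge of the grey cloud, and Fos and Jund lie at -0.35 and -0.34 on the vertical axis.

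Differences in the arrays numbered 1 varied with brightness over all genes, so each member was set beside genes whose mean lay within 0.5 of its own. Near Fosb, a dim gene, the median difference of 3891 genes in number 1 was 0.02. For Jun these 2055 genes had a median difference of -0.15 in number 1 and -0.00473 in number 2, so the Jun difference exceeded both medians in size. Only 0.0487% of them had a lower mean difference than Jun, and 2.73% had a wider range over the 4 arrays than its 1.13. For Fos, 7.64% of 1833 genes had a lower mean difference, and the medians were -0.09 in number 1 and -0.00331 in number 2. For Jund, 9.16% of 1081 genes had a lower difference, with medians of -0.10 and 0.00537. Its number 1 difference of -0.07 was thus nearer to 0 than that median. These shares describe the arrays and carry no p.

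The members differed in how they varied between the arrays of one group. Jun and Fos were higher on the array numbered 1 in both groups: by 0.40 and 0.41 with plumbagin and by 0.64 and 0.22 in the controls. Jund was higher on plumbagin 1 than on plumbagin 2 by 0.12 and lower on control 1 than on control 2 by 0.15. For Jun the gap between the controls, 0.64, was thus wider than the size of its mean difference between the treatments.

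For the members above the background level with the widest range over the 4 arrays, Jun and Fos, the genes with the most similar pattern were found among the other 8636 genes above that level, by the Euclidean distance between log2 values centred on each gene's mean. The closest to Jun were Ttll1 (distance 0.19), the histone gene H3c14 (0.23) and Pola2, a subunit of DNA polymerase alpha (0.26). Each was highest on control 1 and lowest on plumbagin 2, as Jun was. The closest to Fos were Pkp2, a desmosomal plakophilin (0.05), Nmral1 (0.06) and Prr11 (0.06), again highest on control 1 and lowest on plumbagin 2. Jun and Fos lay 0.47 from each other, farther than from any of these, and the distance between Fos and Fosl2 was 0.30. With 4 arrays, such likeness is a description of the order and size of 4 values.

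**Figure D4:**
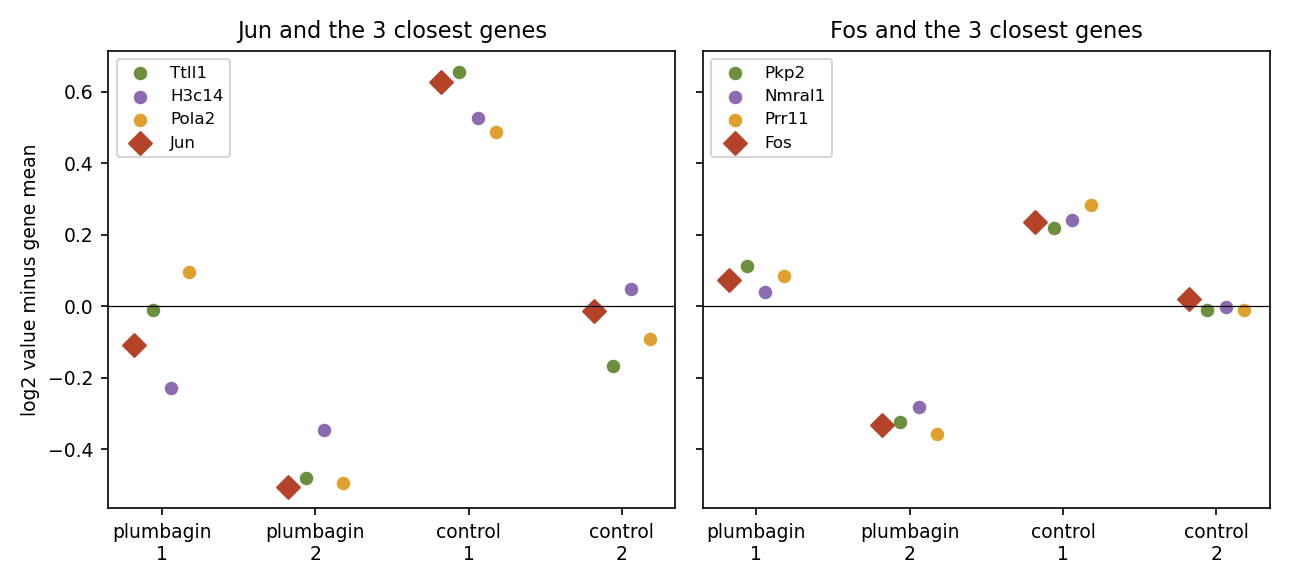
Log2 value minus the gene's mean over the 4 arrays (vertical axis) on each array (horizontal axis) for Jun and Fos (red diamonds) and the 3 genes closest to each (circles). In both panels all genes are highest on control 1 and lowest on plumbagin 2.

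Other genes of the AP-1 system were read from 6 lists. Their counts stand beside the shares over all genes, of which 55.1% had a mean difference below 0, 15.2% had both plumbagin arrays below both controls and 10.2% had both above. Of 13 measured partner factors of the basic leucine zipper class, 0 passed the limma test, 8 had a mean difference below 0 and 5 above, and in 4 both plumbagin arrays lay below both controls, with 0 above. Among genes above the background level, as 10 of the 13 were, 18.3% lay below and 5.66% above. A mean difference below 0 was found in 5619 of the 8637 genes above that level. The small Maf protein Mafg was at 7.97 and 8.20 with plumbagin against 8.40 and 8.42 in the controls (difference -0.32 ± 0.11, log2, SE). Mafk, another small Maf, differed by -0.33 ± 0.16. Atf3, a stress-induced partner of Jun, was at 6.03 and 7.01 with plumbagin against 6.96 and 7.47 in the controls (difference -0.69 ± 0.38), and these groups overlapped. The list median was -0.10, with -0.15 in number 1 and -0.05 in number 2. It was -0.21 without plumbagin 2, -0.14 without control 1, -0.06 without plumbagin 1 and -0.03 without control 2, and 0.00152 over all probe sets of the list taken singly.

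The MAP kinases and related kinases upstream of AP-1 had the narrowest range of the 6 lists. Of 11 measured genes 0 passed the limma test, 4 lay below 0 and 7 above, from -0.07 to 0.07, and in 0 genes the groups were apart in either direction. The Jun kinase genes Mapk9 and Mapk8 differed by -0.07 ± 0.09 and 0.05 ± 0.09 (log2, SE), and Gsk3b, whose kinase marks c-Jun for degradation, by 0.07 ± 0.12. These are mRNA levels and carry no information on kinase activity.

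Among 11 measured transcription factors and coactivators that act on the Fos and Jun promoters, 0 passed the limma test. The mean difference lay below 0 in 7 and above 0 in 4. Both plumbagin arrays lay below both controls in 3 and above in 1. All 11 genes were above the background level. Of the 8637 genes above that level, 5619 had a mean difference below 0, while 18.3% lay below both controls and 5.66% above. The list median was -0.09, but 0.07 without plumbagin 1, 0.01 without control 2 and 0.0031 with probe sets averaged, so it gives no direction. Mef2c, a MADS-box factor, was at 8.25 and 7.51 with plumbagin against 7.55 and 7.19 in the controls, and its groups overlapped (difference 0.51 ± 0.29, log2, SE). Creb1, which binds the CREB site, differed by 0.27 ± 0.15, made of 0.49 in number 1 and 0.05 in number 2. Its coactivator Crebbp differed by -0.31 ± 0.18, made of -0.57 and -0.04.

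Of 11 measured regulators of AP-1 turnover and redox state, 0 passed the limma test, 6 lay below 0 and 5 above, and both plumbagin arrays lay below both controls in 4 and above in 0. All 11 were above the background level, where 18.3% of genes lay below and 5.66% above. Of the 8637 genes above that level, 5619 had a mean difference below 0. The list median was -0.00503, from -0.16 without control 2 to 0.06 without control 1. The 3 genes with the smallest p, which were among those 4, were Det1, a part of the ubiquitin ligase that targets c-Jun (-0.22 ± 0.09, log2, SE), Zfp36l2, which promotes decay of AU-rich mRNAs (-0.35 ± 0.16), and Elavl1, whose product HuR stabilises such mRNAs, Fos among them (-0.42 ± 0.19). For Zfp36l2 and Elavl1 most of the difference lay in number 1 (-0.59 and -0.74), against -0.11 and -0.09 in number 2.

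Of 24 other immediate early genes, 0 passed the limma test, 17 lay below 0 and 7 above. The background level was exceeded by 15 of the 24, and 5619 of the 8637 genes above that level had a mean difference below 0. Both plumbagin arrays lay below both controls in 4 and above in 2, beside 15.2% and 10.2% of all genes. The 4 genes below, Dusp1, Rhob, Ier2 and Nr4a1, had means above the background level, where 18.3% of genes lay below and 5.66% above. The 2 genes above, Arc and Ptgs2, had means under that level. Dusp1, a phosphatase that switches off MAP kinases, was at 6.63 and 6.88 with plumbagin against 7.17 and 7.16 in the controls (difference -0.41 ± 0.11, log2, SE). Rhob, a small GTPase, differed by -0.28 ± 0.13, and Arc, below the background level, by 0.22 ± 0.10. The list median was -0.05, with -0.14 in number 1 and -0.10 in number 2. Over the 15 genes above the background level it was -0.17, beside -0.05 over all genes above that level. For the whole list, leaving out control 2 gave -0.08. Ier3, chosen after its values were seen, had the highest difference of the list (0.64 ± 0.62, log2, SE). It was at 8.77 and 7.70 with plumbagin against 8.32 and 6.87 in the controls, and these groups overlapped.

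Of 23 measured genes known as AP-1 targets, only 10 had a mean above the background level. Of the 23, 0 passed the limma test, 13 lay below 0 and 10 above. The median was -0.00942, between -0.05 without control 2 and -0.00359 without control 1. Over the 10 genes above the background level it was -0.06, beside -0.05 over all genes above that level. Ccnd1, the gene of cyclin D1, was at 8.97 and 8.98 with plumbagin against 9.28 and 9.02 in the controls (difference -0.18 ± 0.12, log2, SE). Timp1, an inhibitor of matrix metalloproteinases, differed by -0.12 ± 0.09, with -0.12 in both numbers. Loxl2, a lysyl oxidase below the background level, differed by -0.22 ± 0.13. Hmox1, chosen after its values were seen, had the highest difference of the list (0.41 ± 0.56, log2, SE), made of -0.07 in number 1 and 0.89 in number 2. It was at 6.66 and 8.18 with plumbagin against 6.73 and 7.28 in the controls, and these groups overlapped. Both plumbagin arrays lay below both controls in 5 of the 23 genes and above in 1, beside 15.2% and 10.2% of all genes. The 1 gene above, Il6, had a mean of 3.11, below the background level.

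**Figure D5:**
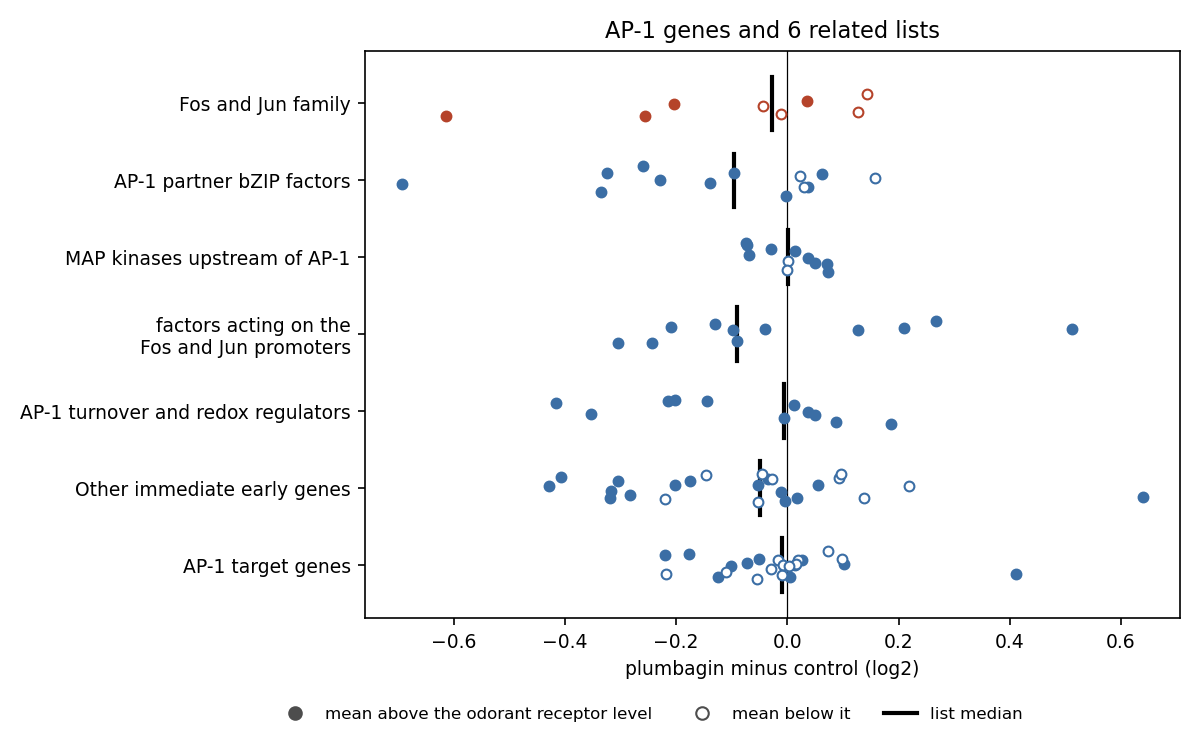
Difference of plumbagin minus control (horizontal axis, log2) for each measured gene of the AP-1 family (red) and of 6 related lists (blue). Filled circles have a mean above the odorant receptor level, open circles below it, black bars are list medians, and the vertical scatter within a row has no meaning. Jun, at -0.61, is the leftmost member of its family, and the kinases lie between -0.07 and 0.07.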

How the data were processed

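Total RNA of each sample was labelled with biotin and hybridized to an Affymetrix mouse genome array strip, per the labels. The deposited table held log2 values of 45141 probe sets on each of the 4 arrays. The submitters' processing notes name Affymetrix Expression Console, Transcriptome Analysis Console and RMA, whose versions are not given in the sources used here. The RMA method makes array distributions alike, so a shift of most genes one way would be removed, and it compresses weak signals.

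Probe sets with 1 gene symbol in the platform's annotation (28898) were kept and symbols were updated through the gene number in a RefSeq table (GRCm38.p6). The probe set brightest on average over the 4 arrays stood for its gene. Groups came from the sample titles. Differences were fitted with limma 3.58.1 in R 4.3.3 over all 17097 genes (two-sided, Benjamini-Hochberg, threshold 0.05) without covariates, and the code was tested on simulated data. No gene was filtered out.

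The members and lists were chosen with earlier results of these data known. Named are all 8 members, the 3 genes with the smallest p in each other list, and the 3 genes closest in pattern to the 2 members with the widest range above the background level. Ier3 and Hmox1 were added after their values were seen, and Il6, Ier2, Nr4a1 and Ptgs2 because their groups did not overlap. Of the 107 genes in the other lists, 14 were not measured. Alternatives were separate or averaged probe sets, filters on dim genes, median-centred, cyclic loess or repeated quantile normalization, other settings of eBayes (robust, trend), a block for the replicate number, and fits without single arrays. With 1 array left in a group, its spread was taken from that of the other group.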

Additional observations from a re-analysis of the deposited data

How the results depend on the processing

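No gene passed an adjusted p of 0.05 under any alternative tried, while the number with an unadjusted p under 0.05 went from 169 to between 24 (genes above the median level alone) and 973 (without plumbagin 2). Fos, Fosb, Jun and Jund kept the sign of their differences wherever they were tested (Fosb falls out with either filter on dim genes), Jun between -0.93 and -0.29, with -0.20 for its other probe set, Fos between -0.46 and -0.05, Jund between -0.28 and -0.10, with -0.00103 for its other probe set, and Fosb between 0.03 and 0.22. Fosl2 turned to -0.0732 with its probe sets averaged and to -0.183 with its other probe set. With single arrays left out, Fosl2 ranged from -0.117 to 0.189, Fosl1 from -0.0431 to 0.328, Junb from -0.126 to 0.0386 and Batf from -0.0923 to 0.0709, and all 4 crossed 0. The number of members below every control on every plumbagin array was 2, but 3 with arrays centred on their medians, 1 with cyclic loess and 0 with repeated quantile normalization, and it ranged from 2 to 6 with 1 array left out, where fewer arrays have to be apart (6 without plumbagin 1, 4 without control 2); the cause of the changes with normalization was not tested. Arrays with the same number deviated together (correlation of deviations 0.54 over 17097 genes), but 2 pairs do not settle a pairing. With the replicate block the Jun difference had an SE of 0.10 and an unadjusted p of 0.00387, and Fos an SE of 0.09 and an unadjusted p of 0.0490 (limma adjusted p = 0.919 for both, and 0.919 to 0.997 over the 8 members), and the block left the count of calls at 0 (434 genes with an unadjusted p under 0.05). Some list medians moved by more than their spread between arrays under some settings. With dim genes left out, the median was -0.23 for the AP-1 genes and -0.17 for the other immediate early genes. These medians cover fewer genes, 4 of 8 and 15 of 24. The median of the AP-1 targets stayed within its spread in 4 of 14 alternatives and lay between -0.06 and -0.00359. That of the AP-1 genes stayed within its spread in 12 of 14. The array number, 2 per group, and the low signal of Fosb, Fosl1, Junb and Batf limit what these data can show.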
